A study of Mus musculus with 55 samples.

Results

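The genes described here build or remodel the perineuronal net and the loose matrix of the brain. They are 10 of the 28492 genes counted in a first experiment, on maturation, and 10 of the 28216 counted in a further one, on different stimuli. They were taken by name: the lecticans Acan, Bcan, Ncan and Vcan, the link proteins Hapln1 and Hapln4, tenascin-R (Tnr), the protease Adamts1 and the hyaluronan synthases Has2 and Has3. Each gene stands for its RefSeq transcript with the most counts in that experiment.

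The study asked how the transcriptional response to activity changes as neurons mature and how it depends on the stimulus, in primary forebrain cultures from CD1 mouse embryos. In the maturation experiment, 15 samples at 7 days in vitro (7DIV) and 13 at the later stage, called 21DIV by the study and labelled 23DIV, were left unstimulated (basal), depolarised with 55 mM KCl, or treated with 50 µM bicuculline (Bic, a blocker of GABA-A receptors) plus 2.5 mM 4-aminopyridine, for 15 or 180 min, with 2 or 3 samples a group. In the stimuli experiment, 27 samples at 21DIV were basal (n = 3), given 55 mM KCl or 50 µM Bic alone for 15, 45 or 180 min (n = 2 each), silenced for 48 h with 1 µM tetrodotoxin (basal TTX, n = 4), or silenced in the same way and then washed free of it for 15, 45 or 180 min (TTX withdrawal, TTXw, n = 3, 2 and 3). No group carried an engineered allele by its labels, the embryos were of mixed sex, and the method is meant to enrich neurons with little glia, although astrocyte markers were present in every group. TTXw was compared with basal TTX while KCl and Bic at each stage shared 1 basal group. Nothing states that samples of a group came from separate cultures, so the p-values measure only the spread between these samples, which may be technical.

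Perineuronal nets are lattices of extracellular matrix that form around the cell body and first dendrites of some neurons, above all parvalbumin interneurons, late in brain development. Hyaluronan, spun out at the cell surface by the Has enzymes, forms the backbone, the lecticans bind to it, link proteins hold that bond, and tenascin-R ties lecticans together. Aggrecan (Acan) is the lectican most typical of nets, versican (Vcan) and neurocan (Ncan) belong more to the juvenile matrix, and brevican (Bcan) and tenascin-R are made largely by glia. ADAMTS1 is a secreted protease that cuts aggrecan and versican.

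Acan and Adamts1 carried most of the responses to stimulation, so the 250 bases before their RefSeq start sites are shown, in GRCm38.p6 coordinates and read 5′ to 3′ on the strand of the gene. Capitals mark TCGTG, the letters of the NPAS4 site, in Acan, and TGACG, the core of the CREB site (CRE), in Adamts1. Acan lies on the plus strand and the window is chr7:79052976-79053225. Adamts1 lies on the minus strand and the window is chr16:85803114-85803363.
Acan: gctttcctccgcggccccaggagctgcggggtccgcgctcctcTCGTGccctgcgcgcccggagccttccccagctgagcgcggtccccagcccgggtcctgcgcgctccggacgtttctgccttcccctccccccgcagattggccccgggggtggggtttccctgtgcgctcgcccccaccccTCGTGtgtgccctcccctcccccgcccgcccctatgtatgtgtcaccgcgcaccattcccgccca
Adamts1: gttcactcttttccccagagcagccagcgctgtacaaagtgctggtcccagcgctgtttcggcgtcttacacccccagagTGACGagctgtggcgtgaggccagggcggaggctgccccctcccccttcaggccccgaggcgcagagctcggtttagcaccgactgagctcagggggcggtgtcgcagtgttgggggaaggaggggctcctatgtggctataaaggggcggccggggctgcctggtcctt

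The Acan window held 2 TCGTG matches, with their 5′ base 207 and 65 bases before the start. The Adamts1 window held 1 TGACG match, 170 bases before the start. Both strands were searched, and the same length before the start held TCGTG in 13.3% and TGACG in 17.8% of 32851 mouse promoters. In the other 5 genes with a promoter sequence (Bcan, Ncan, Vcan, Hapln1 and Tnr) neither motif matched. TGANTCA (AP-1), GCGNGGGCG (EGR), CACGTG (E-box) and the CArG box matched in none of the 7, against 6.75%, 4.7%, 6.02% and 1.47% of all promoters. A match describes these letters in this window only, and binding of a factor was not measured.

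Levels are given in CPM, counts scaled to library size with TMM factors. The samples held 1659722 to 4474968 counts on genes at 7DIV, 1784170 to 14012872 at 21DIV of that experiment and 1177500 to 3909487 under the different stimuli. Has2 and Has3 did not exceed 5 CPM, taken on library size before TMM scaling, in 2 samples of a fit and were not tested, and the other 8 genes were tested in every comparison. A gene was called when the adjusted p of edgeR's quasi-likelihood test was under 0.05 and the change at least 1.5-fold, and errors of fold changes are SE on the log2 scale. The experiments were scaled separately, so levels set beside each other across them were not tested.

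Without stimulation, the matrix genes changed in both directions between 7DIV and 21DIV of the maturation experiment. Bcan, Hapln1 and Tnr were higher and Acan, Vcan and Adamts1 lower at 21DIV, while Ncan did not pass the test. That is 6 of 7 genes, in a comparison that called 33.1% of 10510 genes (18.2% higher and 14.9% lower). Hapln4 passed the filter on low counts only through its 21DIV samples, so its test between stages was fixed by the filter and it is left out of this count. Acan and Adamts1 were not lower in the 21DIV basal samples of the stimuli experiment, which were scaled separately. Their means there were 33.6 and 27.8 CPM, against 18.7 and 25.8 CPM in 7DIV basal samples. Means of Bcan, Vcan, Hapln1 and Tnr there lay on the same side of 7DIV as in the maturation experiment. The falls of Acan and Adamts1 thus describe the maturation samples only, and the difference between experiments was not tested.

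Among the lecticans, Vcan fell furthest. Its level was 27.9, 28.2 and 29.8 CPM in the basal samples at 7DIV and 4.84, 5.54 and 5.2 CPM at 21DIV. The groups lay far apart and each was tight, and the change was -2.43 ± 0.25 log2 (5.40-fold lower, adjusted p = 5.25e-06). Bcan moved the other way, from 26.1, 12.3 and 25.2 CPM at 7DIV to 78.0, 80.8 and 70.8 CPM at 21DIV. No sample of the groups overlapped, with a change of 1.84 ± 0.23 (3.57-fold, adjusted p = 2.89e-05). Acan stood at 18.9, 22.7 and 14.4 CPM at 7DIV and at 14.9, 5.54 and 6.42 CPM at 21DIV. Replicate 1 at 21DIV lay within the 7DIV samples, and the change of -1.02 ± 0.38 had an adjusted p of 0.0464. That call did not hold without replicate 2 or 3 of either basal group, and the change ranged from -1.57 to -0.79 as each of the 6 samples was left out. Ncan was at 126, 131 and 159.55 CPM at 7DIV and at 117, 107 and 102 CPM at 21DIV. The 21DIV samples were all lower, but the change of -0.33 ± 0.15 did not pass (adjusted p = 0.0898).

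The link proteins were both higher at 21DIV, on very different scales. Hapln4 had 3, 0 and 1 counts in the 7DIV basal samples and 15.0, 72.6 and 102 CPM at 21DIV. Every 21DIV sample was far above every 7DIV sample, yet the 21DIV samples themselves spread almost as widely as their mean (63.4 ± 44.4 CPM, SD, n = 3). The pooled counts were 1419 at 21DIV and 4 at 7DIV, a ratio of 129 after scaling (95% exact interval 50.3 to 475, counting error only). The fitted change of 6.84 log2 depends on the prior count and ran from 6.27 to 8.23 as each sample was left out. These values describe the samples only, since the test between stages was fixed by the filter. Hapln1, the link protein of most matrices, was at 23.2, 35.6 and 38.5 CPM at 7DIV and at 59.6, 43.8 and 48.7 CPM at 21DIV. The groups did not overlap and the change was 0.66 ± 0.21 (adjusted p = 0.0257), just over the 1.5-fold limit, and it lost its call without 7DIV replicate 2 or 3 or 21DIV replicate 1 (0.45 to 0.80 as each sample was left out).

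Tnr, the cross-linker, rose from 14.7, 14.7 and 12.2 CPM to 26.1, 40.2 and 38.7 CPM. The change was 1.38 ± 0.24 (2.61-fold, adjusted p = 0.000544). Adamts1, the protease, fell from 27.9, 23.3 and 26.3 CPM to 9.68, 8.41 and 7.97 CPM. Both groups were tight and far apart, and the change was -1.55 ± 0.24 (2.93-fold lower, adjusted p = 0.000201). Over all samples of the experiment, stimulated or not, Vcan spanned 23.1 to 41.2 CPM at 7DIV (n = 15) and 1.63 to 11.7 CPM at 21DIV (n = 13). Bcan spanned 12.3 to 45.7 and 60.0 to 94.3 CPM, Tnr 11.2 to 25.8 and 26.1 to 40.2 CPM, and Hapln4 0 to 2.89 and 15.0 to 102 CPM. For these 4 genes no sample of either stage reached into the other, while Acan and Adamts1 overlapped between stages. How many of all genes part in this way was not counted, so the separation describes these samples only. Hapln4 passed the filter only through its 21DIV samples.

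**Figure D1:**
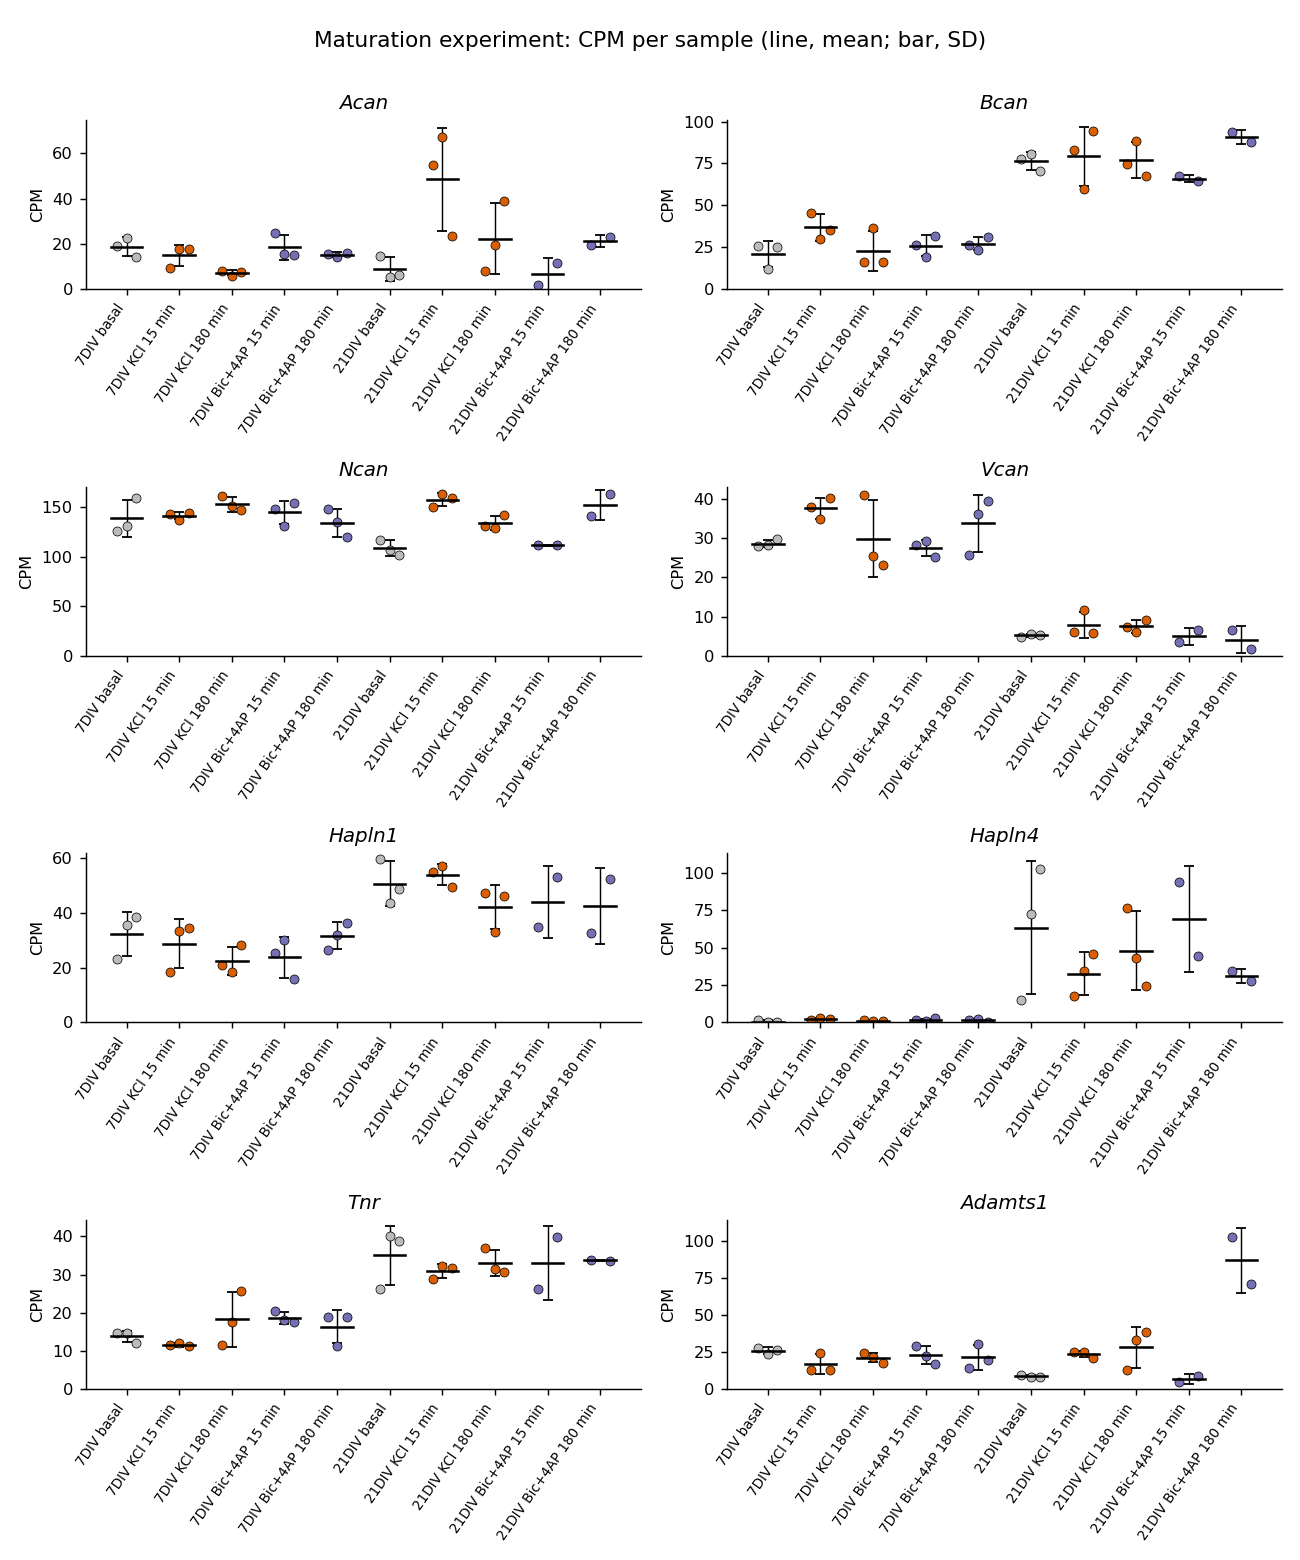
CPM of the 8 tested genes in each sample of the maturation experiment (points), with the mean (line) and SD (bar) of each group, 7DIV groups on the left and 21DIV groups on the right of each panel. Vcan sits between 23.1 and 41.2 CPM at 7DIV and at or under 11.7 CPM at 21DIV, Hapln4 between 0 and 2.89 CPM at 7DIV and between 15.0 and 102 CPM at 21DIV, and Adamts1 is highest at 21DIV after 180 min of Bic plus 4-aminopyridine (102 and 71.1 CPM).

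Markers of other cells moved with the stage. Of the 10 astrocyte markers, 9 were called higher at 21DIV, and their summed level was 595 to 867 CPM in the 7DIV basal samples and 4660 to 5681 CPM at 21DIV. All 6 markers of oligodendrocyte precursors, all 5 tested of 7 for oligodendrocytes (Mobp had no counts in the 7DIV basal samples) and 4 of 5 for parvalbumin interneurons (Syt2 had none there) were called higher. Of all genes, 18.2% were called higher and 14.9% lower. A marker with no counts at 7DIV can pass the filter only through 21DIV samples, as Hapln4 did. The 7 oligodendrocyte markers summed to only 21.5 to 34.7 CPM at 7DIV, so the same may hold for some of them. Neuron markers split, with 4 higher and 3 lower of 7, and summed to 3718 to 4022 CPM and 4178 to 5209 CPM. In bulk samples, fewer cells of a type and less RNA per cell cannot be told apart, and the part of these cells in the changes above was not tested.

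At 7DIV, no matrix gene was called after any stimulus. KCl called 0% of 11746 genes at 15 min (0 genes, with 659 at an unadjusted p under 0.05) and 1.98% at 180 min (1.05% higher and 0.936% lower), and Bic plus 4-aminopyridine called 0% at 15 and at 180 min (0 genes each, with 793 and 701 at an unadjusted p under 0.05). Acan after 180 min of KCl had the lowest adjusted p of these tests, at 8.15, 5.95 and 7.46 CPM against 18.9, 22.7 and 14.4 CPM in basal samples. These groups did not overlap, but the change of -1.34 ± 0.53 had an adjusted p of 0.246. It passed without the filter on low counts (-1.31, adjusted p = 0.0088) and in a fit on the compared groups alone (-1.35, adjusted p = 0.0417). Adamts1 stayed between 12.7 and 30.7 CPM over the 15 samples at 7DIV, and its 95% interval after 180 min of Bic plus 4-aminopyridine was -0.93 to 0.40 log2.

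At 21DIV of the same experiment, Acan was called after 15 min of KCl only and Adamts1 after every stimulus but 15 min of Bic plus 4-aminopyridine. KCl for 15 min called 2 of the 8 genes, both higher, against 6.23% of 11746 genes (3.21% higher and 3.02% lower). Acan reached 55.0, 67.2 and 23.3 CPM against 14.9, 5.54 and 6.42 CPM. All 3 stimulated samples exceeded all basal samples, though replicate 3 rose least, and the change was 2.45 ± 0.44 (5.46-fold, adjusted p = 0.000682). Adamts1 reached 24.99, 25.02 and 21.2 CPM from 9.68, 8.41 and 7.97 CPM, a change of 1.45 ± 0.31 (adjusted p = 0.00379). Ncan passed the adjusted p but not the fold limit, with 0.53 ± 0.11 (adjusted p = 0.00353) and 149.82 to 163 CPM against 102 to 117 CPM in basal samples.

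After 180 min of KCl at 21DIV, only Adamts1 of the 8 genes was called, against 4.89% of all genes (2.98% higher and 1.91% lower). Its samples stood at 12.7, 33.2 and 38.7 CPM, all above the basal samples, and the change was 1.69 ± 0.32 (3.24-fold, adjusted p = 0.00116). The same dose and time at 21DIV in the stimuli experiment did not call Adamts1, with means of 26.5 CPM against 27.8 CPM in basal samples. Acan was at 8.18, 19.6 and 39.2 CPM, which overlapped basal samples, and its change of 1.32 ± 0.44 did not pass (adjusted p = 0.0733). Without basal replicate 1, the highest of its group, the change was 1.86 and passed (adjusted p = 0.018), as it did without KCl 180 min replicate 1, with DESeq2, without the filter and in 1 test over all time points.

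Bic plus 4-aminopyridine at 21DIV called none of the 8 genes at 15 min, when 0.0511% of all genes were called, all of them higher. At 180 min it called Adamts1 alone, against 14.2% of all genes (7.39% higher and 6.84% lower). Adamts1 stood at 102 and 71.1 CPM against 9.68, 8.41 and 7.97 CPM in basal samples, the highest values of this gene in the experiment. The change was 3.32 ± 0.34 (10.02-fold, adjusted p = 9.36e-08), and it kept its call in all 7 fits that left out 1 sample (3.03 to 3.55). Ncan again passed the adjusted p only (0.48 ± 0.13, adjusted p = 0.00914), and Acan, at 19.3 and 23.1 CPM, had a change of 1.25 ± 0.49 that did not pass (adjusted p = 0.0733). Without basal replicate 1 both Acan (1.80, adjusted p = 0.0156) and Hapln4 (-1.49, adjusted p = 0.0126) were called. In these samples 3 of 10 astrocyte markers and 3 of 6 precursor markers were called lower, with an astrocyte sum of 1771 to 3412 CPM. Neuron sums were 3566 to 3948 CPM against 4178 to 5209 CPM in basal samples, and those of interneurons overlapped. The part of these cells was not tested.

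The responses of both genes differed between stages by a test of the difference itself. For KCl at 15 min, 2 of the 8 genes were called against 2.03% of all genes (0.86% with a more positive response at 21DIV and 1.17% with a more negative response). The Acan response was 2.75 ± 0.64 log2 larger at 21DIV (adjusted p = 0.021) and that of Adamts1 2.05 ± 0.46 larger (adjusted p = 0.0153). At 180 min Adamts1 alone was called (2.00 ± 0.46, adjusted p = 0.0313), against 0.775% of all genes (0.434% more positive and 0.341% more negative), and the difference for Acan, 2.66 ± 0.69, did not pass (adjusted p = 0.0586). It did pass with DESeq2 (2.69, adjusted p = 0.0086), with no filter on low counts (2.64, adjusted p = 9.31e-07) and without 21DIV basal replicate 1 (3.20, adjusted p = 0.0174), KCl 15 min replicate 3 (2.65, adjusted p = 0.0368) or KCl 180 min replicate 1 (3.05, adjusted p = 0.00855). For Bic plus 4-aminopyridine none was called at 15 min, against 0.00851% of all genes. At 180 min Adamts1 was called with 3.59 ± 0.47 (adjusted p = 3e-05), against 4.95% of all genes (2.58% more positive and 2.38% more negative), and it held in all 16 fits that left out 1 sample. The KCl differences were less firm. The Acan difference lost its call in 5 of 18 such fits (2.45 to 3.29), the Adamts1 difference at 15 min in 3 (1.87 to 2.46) and that at 180 min in 9 (1.72 to 2.34), always including the fits without 21DIV basal replicate 2 or 3.

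In the stimuli experiment, Acan was the matrix gene that moved most, upwards within 15 min of Bic or KCl and downwards under TTX. The order of its group means ran from KCl at 15 min (226 CPM) through Bic at 15 min (139), Bic at 45 min (85.6), KCl at 45 min (61.4), Bic at 180 min (48.1), KCl at 180 min (37.3) and basal (33.6) to the 4 groups with TTX (3.17 to 3.55). The samples of Bic at 45 min (55.9 and 115 CPM) and KCl at 45 min (63.0 and 59.7 CPM) overlapped, and so did those of KCl at 180 min (35.5 and 39.02 CPM) and basal (22.7 to 52.1 CPM). Both Bic samples at 180 min (46.1 and 50.1 CPM) lay within the basal range, and the 4 groups with TTX overlapped one another but no other group.

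Bic alone for 15 min called Acan only of the 8 genes, against 3.42% of 12027 genes (2.4% higher and 1.01% lower). Acan stood at 147 and 130.54 CPM, against 26.1, 52.1 and 22.7 CPM in basal samples. Both samples lay far above all basal samples, with a change of 2.06 ± 0.23 (4.18-fold, adjusted p = 1.06e-07). At 45 min 5 genes were called, all higher, against 7.45% of all genes (4.5% higher and 2.95% lower), and the median change of the 8 genes was 0.68 against -0.01 over all genes. Acan was at 55.9 and 115 CPM (1.37 ± 0.23, adjusted p = 8.12e-05) and Adamts1 at 51.9 and 65.0 CPM against 26.9, 33.5 and 23.1 CPM (1.08 ± 0.21, adjusted p = 0.000657). Both of these calls were lost without Bic 45 min replicate 2, where the Acan change was 0.77.

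The other 3 calls at 45 min of Bic were the matrix genes Bcan, Vcan and Hapln1. Bcan was at 98.6 and 98.0 CPM against 59.02, 69.96 and 53.4 CPM (0.69 ± 0.16, adjusted p = 0.00285), a value that rests on which Bcan transcript is counted, as described further on. Vcan was at 13.1 and 11.2 CPM against 3.72, 5.58 and 3.79 CPM (1.47 ± 0.35, adjusted p = 0.00493). Hapln1 was at 218 and 221 CPM against 127 to 148 CPM (0.66 ± 0.14, adjusted p = 0.00205). No sample overlapped in any of the 3, but how many of all genes part in this way was not counted. Tnr passed the adjusted p only (0.57 ± 0.17, adjusted p = 0.0301). In the same samples 6 of 10 astrocyte markers and 4 of 6 precursor markers were called higher, with astrocyte sums of 5212 to 5911 CPM against 2638 to 3240 CPM in basal samples. Neuron sums were higher too (5268 to 5275 against 4433 to 4538 CPM). So were those of interneurons (5456 to 5637 against 3918.5 to 4656 CPM) and parvalbumin interneurons (297 to 348 against 205 to 243 CPM). The part of these cells was not tested.

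At 180 min of Bic, Adamts1 alone was called, against 0.765% of all genes (0.69% higher and 0.0748% lower). Its samples stood at 71.7 and 67.2 CPM, above those at 15 min (38.2 and 32.4 CPM) and 45 min, and the change from basal was 1.32 ± 0.21 (2.49-fold, adjusted p = 6.68e-05). Acan was at 46.1 and 50.1 CPM, inside the basal range, with 0.53 ± 0.24 (adjusted p = 0.511).

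KCl called 4 of the 8 genes at 15 min, all higher, against 7.22% of all genes (4.52% higher and 2.69% lower). It called none at 45 min, against 0.765% of all genes (0.607% higher and 0.158% lower), and none at 180 min, against 0.765% (0.507% higher and 0.258% lower). Acan reached 230.35 and 221 CPM, above every other sample of this experiment, a change of 2.75 ± 0.22 (6.74-fold, adjusted p = 1.4e-11). Bcan was at 112 and 98.2 CPM (0.78 ± 0.15, adjusted p = 0.000716), Vcan at 8.13 and 12.5 CPM (1.26 ± 0.36, adjusted p = 0.0188) and Adamts1 at 49.2 and 47.4 CPM (0.79 ± 0.22, adjusted p = 0.0151). None of these samples overlapped the basal samples, a separation not counted over all genes. The calls of Vcan and Adamts1 were each lost without basal replicate 1 or 5 or KCl 15 min replicate 2. That of Adamts1 was also lost without KCl 15 min replicate 1, with thinned counts, with counts summed over transcripts and with a replicate block. That of Vcan was also lost in 1 test over all time points. Without 1 of those samples the Vcan change ranged down to 0.93 and that of Adamts1 down to 0.68. Astrocyte markers were called higher in 4 of 10 cases here, with sums of 4778 to 4812 CPM. Sums of neurons (5398 to 5896 against 4433 to 4538 CPM in basal samples) and interneurons (5219 to 5506 against 3918.5 to 4656 CPM) were also higher. Those of parvalbumin interneurons overlapped basal samples, and the part of these cells was not tested. At 45 min Acan was at 63.0 and 59.7 CPM (0.88 ± 0.24, adjusted p = 0.0742), and without basal replicate 2 the change was 1.32 and passed (adjusted p = 0.00176). At 180 min its interval was -0.40 to 0.73 log2, and that of Adamts1 -0.57 to 0.48.

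Set directly against each other at matched times, Bic and KCl differed in 1 of 24 tests of these genes. Adamts1 at 180 min was higher with Bic, 71.7 and 67.2 CPM against 22.6 and 30.4 CPM, by 1.37 ± 0.26 log2 (adjusted p = 0.0032, with 0.723% of all genes called, 0.432% higher and 0.291% lower), a call lost without KCl 180 min replicate 1. At 15 min the share of all genes called was 0% (0 genes in edgeR, with 553 at an unadjusted p under 0.05), and the Acan difference was -0.69 ± 0.23 with a 95% interval of -1.16 to -0.22 (adjusted p = 0.901). At 45 min, when 0.682% of all genes were called (0.499% higher and 0.183% lower), the intervals were -0.01 to 1.00 for Acan and 0.12 to 0.77 for Hapln1 (adjusted p = 0.534 and 0.274). These intervals leave room for sizeable differences, so a missed threshold here does not show that the stimuli act alike.

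**Figure D2:**
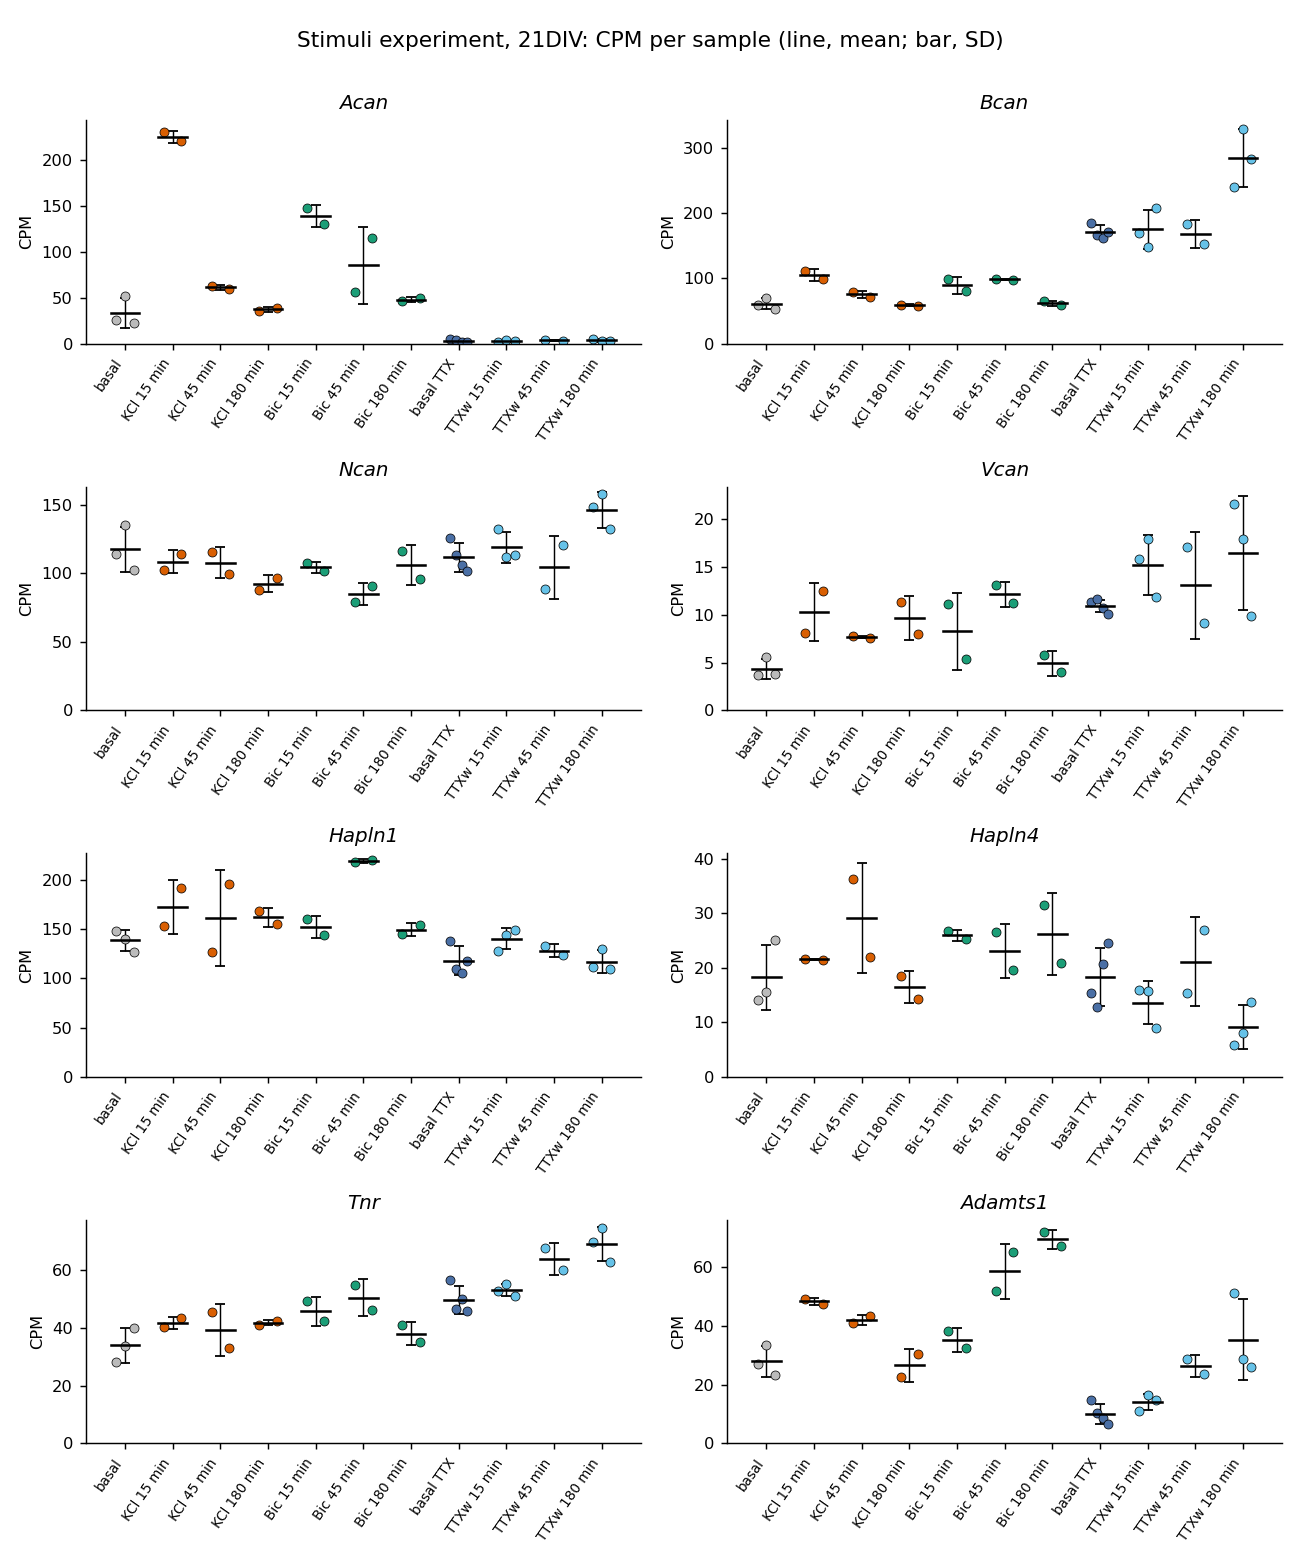
CPM of the 8 tested genes in each sample of the stimuli experiment (points), with the mean (line) and SD (bar) of each group. Acan sits between 1.81 and 5.23 CPM in the 12 samples with TTX and between 22.7 and 230.35 CPM in the 15 without, and Bcan between 148 and 328 CPM with TTX and between 53.4 and 112 CPM without.

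After silencing for 48 h, Acan and Adamts1 were lower and Bcan and Vcan higher. By the paper, controls of the withdrawal were washed as the withdrawn cultures were, while basal wells had a small volume of medium replaced. If basal TTX was washed, silencing and washing cannot be told apart between basal TTX and basal. In basal TTX against basal samples, 4 of the 8 genes were called, 2 in each direction, against 21.6% of all genes (10.8% higher and 10.8% lower). Acan stood at 4.66, 4.07, 2.15 and 1.81 CPM, which is 22 counts in the group, against 26.1, 52.1 and 22.7 CPM. The groups lay far apart, and the change of -3.45 ± 0.34 (10.96-fold lower, adjusted p = 2.3e-10) was the largest in size among the 8 genes in this experiment. All 4 silenced samples lay under the 5 CPM of the filter, which Acan passed through samples without TTX (basal, KCl and Bic). A gene this low under TTX was tested only because it was high in other groups. Its p and its place among the 4 calls are thus given as description only. The size of its change also rests on few counts. Adamts1 fell to 14.6, 10.5, 8.58 and 6.51 CPM from 26.9, 33.5 and 23.1 CPM (-1.53 ± 0.24, adjusted p = 3.57e-06). Again no sample overlapped.

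Bcan stood at 185, 167, 162 and 171 CPM under TTX against 59.02, 69.96 and 53.4 CPM (1.49 ± 0.13, 2.81-fold, adjusted p = 2.47e-11). Vcan stood at 11.3, 11.6, 10.7 and 10.1 CPM against 3.72, 5.58 and 3.79 CPM (1.32 ± 0.32, adjusted p = 0.00157). Its basal samples lay near the 5 CPM of the filter, which it passed through samples with TTX, KCl or Bic. The silenced samples were tight for both genes and above all basal samples. Tnr passed the adjusted p only (0.55 ± 0.15, adjusted p = 0.00533), and the intervals for Ncan, Hapln1 and Hapln4 were -0.34 to 0.18, -0.49 to 0.03 and -0.47 to 0.59 log2. All 10 astrocyte markers were called higher under TTX, with sums of 7436 to 8488 CPM against 2638 to 3240 CPM, as were 5 of 6 precursor markers (2053 to 2112 against 713 to 1153 CPM). Of the 7 neuron markers 2 were called lower, and of the 4 tested parvalbumin interneuron markers none was called, with sums of 225 to 283 CPM against 205 to 243 CPM. The part of these cells in the Bcan and Vcan values was not tested.

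After withdrawal of TTX Adamts1 rose, while no change in Acan was detected. At 15 min TTXw called 0% of all genes (0 in edgeR, with 758 at an unadjusted p under 0.05) and none of the 8. At 45 min it called Adamts1 alone, against 0.382% of all genes (0.349% higher and 0.0333% lower), at 28.9 and 23.6 CPM against 6.51 to 14.6 CPM in basal TTX (1.43 ± 0.28, adjusted p = 0.00558). That call was lost without basal TTX replicate 4 or TTXw 45 min replicate 1. At 180 min 3 genes were called, against 14% of all genes (7.33% higher and 6.69% lower). Adamts1 stood at 51.0, 28.9 and 25.8 CPM (1.86 ± 0.25, 3.63-fold, adjusted p = 5.48e-07), above every basal TTX sample and overlapping the basal samples without TTX.

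Bcan rose further after 180 min of TTXw, to 239, 328 and 282 CPM (0.73 ± 0.12, adjusted p = 2.44e-05), the highest values of the gene. Hapln4 fell to 5.89, 8.04 and 13.7 CPM against 12.8 to 24.6 CPM in basal TTX. Replicate 3 overlapped that range, and the change of -1.07 ± 0.33 (adjusted p = 0.0164) lost its call without basal TTX replicate 4 or TTXw 180 min replicate 1 or 2 (-1.40 to -0.84). Tnr (0.49 ± 0.15, adjusted p = 0.0157) and Ncan (0.40 ± 0.13, adjusted p = 0.0252) passed the adjusted p only. Acan stayed at 2.27 to 5.23 CPM over the 8 TTXw samples, against 1.81 to 4.66 CPM in basal TTX. Its intervals, -1.12 to 1.23 log2 at 15 min, -1.10 to 1.5 at 45 min and -0.999 to 1.39 at 180 min, rest on 13 to 18 counts a group against 22 and are wide. At 15 min the upper end lies under the changes of 2.06 and 2.75 fitted for Bic and KCl. At 45 and 180 min the upper ends lie above the changes fitted at those times for Bic (1.37 and 0.53). At 45 min that also holds for KCl (0.88), so a rise of that size is not excluded at the later times. The changes with Bic and KCl were measured against other controls. The 180 min samples also carried higher astrocyte sums (10904 to 15242 CPM, 5 of 10 markers called higher) and lower neuron sums (2252 to 2775 CPM, 3 of 7 called lower). Of parvalbumin interneuron markers, 3 of 4 tested were called lower there (105 to 149 CPM), and the part of these cells was not tested.

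**Figure D3:**
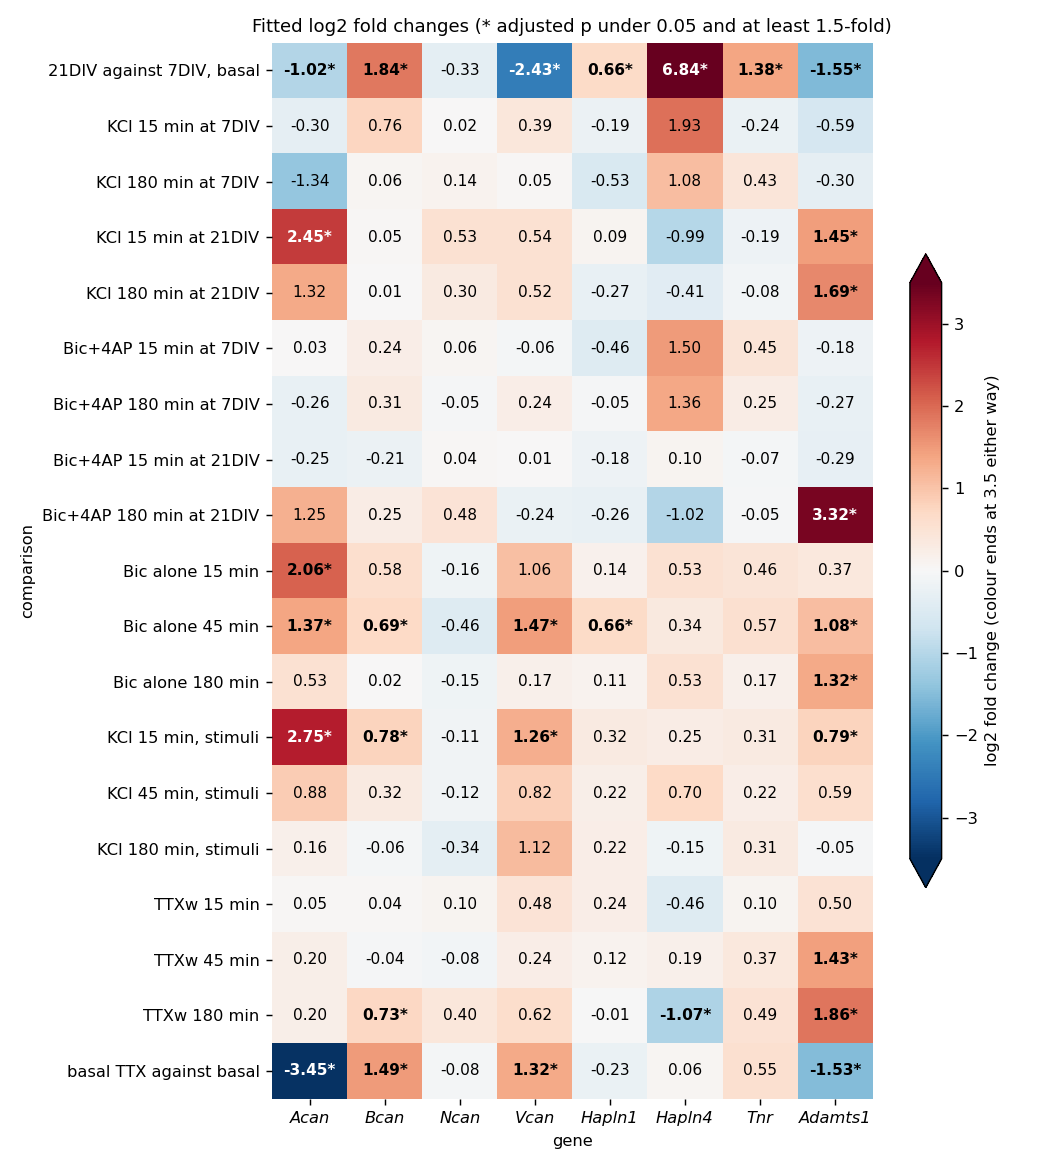
Fitted log2 fold changes of the 8 tested genes (columns) in 19 comparisons (rows), coloured from lower (blue) to higher (red), with a star on calls (adjusted p under 0.05 and at least 1.5-fold). Acan and Adamts1 hold most stars among stimuli at 21DIV, no star stands in a 7DIV stimulus row, and Ncan has none. The star of Hapln4 between basal stages comes from a test fixed by the filter on low counts. Acan under TTX passed that filter only through samples without TTX.

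Bcan was counted at 2 ends that moved apart. RefSeq transcript NM_007529 stands for the gene in the stimuli experiment and NM_001109758 in the maturation experiment, since each had the most counts there. Brevican is known in a secreted and a shorter membrane-anchored form, and which of these transcripts encodes which was not checked. NM_001109758 took 53.9% ± 2.46 (SD, n = 3) of the counts of both ends in basal samples and 36.7% ± 4.49 (SD, n = 4) in basal TTX. No sample overlapped (51.4% to 56.3% against 30.8% to 41.02%), and the difference of -17.2 percentage points had p = 0.0571 in a two-sided exact permutation test, the smallest p these samples allow. Its own change under TTX was 0.51 ± 0.15, which passed the adjusted p (0.00675) but not the fold limit, against 1.49 for NM_007529.

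The other responses of Bcan also rested on NM_007529. At 45 min of Bic the change was 0.69 for NM_007529 and -0.09 for NM_001109758, and at 15 min of KCl in the stimuli experiment 0.78 and -0.12. At those times the share of NM_001109758 was 39.2% and 41.3% with Bic and 39.4% and 37.0% with KCl, all below the basal samples. After 180 min of TTXw the changes were 0.73 and 0.26, and the share, 27.02% to 31.6%, differed from basal TTX by -6.64 points (exact permutation p = 0.171). In the maturation experiment the ends parted the other way after 180 min of Bic plus 4-aminopyridine, where NM_007529 fell (-1.09 ± 0.36, adjusted p = 0.0332) and NM_001109758 changed by 0.25, with a share of 80.5% and 64.0% against 48.4% to 53.4% in basal samples. The rise with stage was called for both ends (1.84 and 1.25). Its share went from 41.6% ± 4.26 to 50.3% ± 2.65 (SD, n = 3 each), an exact permutation p of 0.1, again the smallest possible. Of the other genes, Tnr transcript NM_022312 was called higher after 180 min of TTXw (1.20 ± 0.32, adjusted p = 0.0055). The fit of separate ends was chosen after seeing the data.

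**Figure D4:**
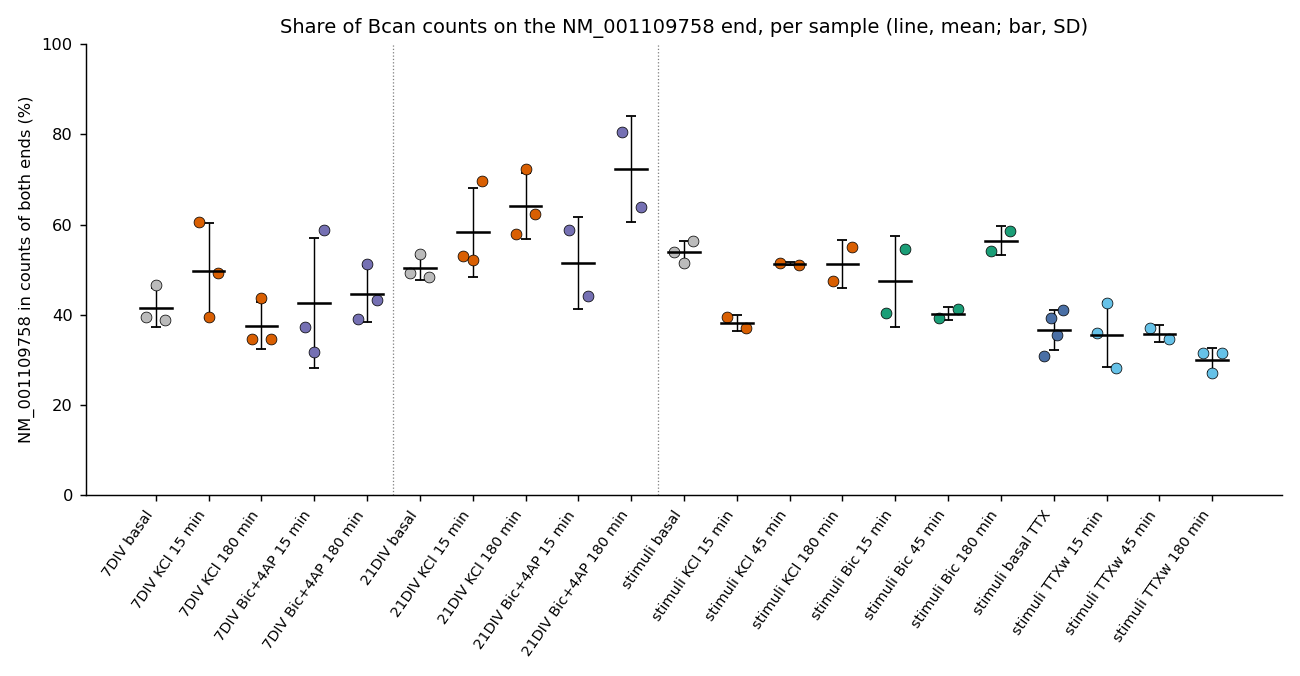
Share of Bcan counts that fell on the NM_001109758 end, as a percentage of the counts of both ends, in each sample (points) with the mean (line) and SD (bar) of each group. Basal samples of the stimuli experiment sit at 51.4% to 56.3% and basal TTX samples at 30.8% to 41.02%, and the highest share is 80.5%, in a sample after 180 min of Bic plus 4-aminopyridine at 21DIV.

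The hyaluronan synthases were near the floor of detection. Has2 had 49 counts over all maturation samples and 68 over all stimuli samples. Of the 68 counts, 24 lay in the TTXw samples at 180 min, against 9 in basal TTX, a ratio of 3.97 after scaling (95% exact interval 1.78 to 9.71, counting error only). At 21DIV of the maturation experiment 26 counts lay in the KCl samples at 15 min against 1 in basal samples, a ratio of 22.5 (3.70 to 923). In the stimuli experiment KCl at 15 min gave 3 counts against 7 in basal samples (unfiltered change -0.55 log2). The groups with 24 and 26 counts held the most Has2 counts of their experiments, and the intervals do not allow for that choice. In a fit with no filter on low counts neither the TTXw nor the maturation KCl difference passed (adjusted p = 0.174 and 0.23). Has3 had 101 counts at 7DIV and 29 at 21DIV of the maturation experiment, and 13 over all stimuli samples. Between basal groups the ratio of 7DIV to 21DIV was 3.20 (1.38 to 7.58) on 14 and 12 counts, with an unfiltered adjusted p of 0.43. Differences of Has2 and Has3 were thus not detectable at this depth by the test across samples.

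A list of 61 other matrix genes, of which 35 to 45 were tested, gives the surroundings of these changes. Between the basal stages, 9 of 35 were higher and 5 lower, against 18.2% and 14.9% of all genes. The largest were Cspg4, the NG2 proteoglycan of oligodendrocyte precursors (2.35 ± 0.24), Nptx2, a secreted neuronal pentraxin (2.31 ± 0.17), Cemip2, a hyaluronidase of the cell surface (-1.90 ± 0.21), and Sema3a, a guidance cue held in nets (-0.93 ± 0.14). At 7DIV, KCl at 180 min called 2 of 44 lower, against 0.936% of all genes, Chst15 (-1.51 ± 0.26), which sulfates chondroitin chains, and Cemip2 (-1.04 ± 0.28), and no other stimulus at 7DIV called any.

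At 21DIV of the maturation experiment, KCl at 15 min called 6 of 44 higher and 1 lower, against 3.21% and 3.02% of all genes. Among them were the glycoproteins tenascin-C (Tnc, 2.36 ± 0.62) and fibronectin (Fn1, 1.90 ± 0.30) and, lower, the Nogo receptor family gene Rtn4rl1 (-0.80 ± 0.21). At 180 min KCl called 2 of 44 higher and 4 lower, against 2.98% and 1.91% of all genes. The higher genes were Fn1 (1.34 ± 0.30) and tissue plasminogen activator (Plat, 1.06 ± 0.31), and the lower ones were led by the hyaluronan receptor Hmmr (-1.82 ± 0.51) and Chpf2 (-0.87 ± 0.26), which extends chondroitin. Bic plus 4-aminopyridine called none at 15 min and, at 180 min, 3 of 44 higher and 4 lower, against 7.39% and 6.84% of all genes, led by Plat (2.10 ± 0.33), the hyaluronan receptor Cd44 (1.43 ± 0.33), Hmmr (-1.98 ± 0.61) and the proteoglycan Cspg5 (-1.13 ± 0.20). By the test of the difference between stages, 1 of 44 was called for KCl at 15 min, against 2.03% of all genes, and 2 of 44 for Bic plus 4-aminopyridine at 180 min, against 4.95%. Nptx2 responded more positively at 21DIV to KCl at 15 min (1.56 ± 0.42), and to Bic plus 4-aminopyridine at 180 min Plat did so (1.78 ± 0.50) while Cspg5 responded more negatively (-1.27 ± 0.26).

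In the stimuli experiment Nptx2 led the list with every activating stimulus but TTXw. It rose by 2.39 ± 0.21, 2.27 ± 0.21 and 1.46 ± 0.21 at 15, 45 and 180 min of Bic and by 2.74 ± 0.21 and 1.34 ± 0.21 at 15 and 45 min of KCl. Bic called 5, 10 and 1 of 45 higher at 15, 45 and 180 min, against 2.4%, 4.5% and 0.69% of all genes, and 0, 1 and 0 lower, against 1.01%, 2.95% and 0.0748%. KCl called 7, 1 and 0 of 45 higher, against 4.52%, 0.607% and 0.507% of all genes, and 0, 0 and 1 lower, against 2.69%, 0.158% and 0.258%. The further genes named by the same rule were Tnc (1.16 ± 0.33, Bic at 15 min), Hmmr (2.21 ± 0.56, Bic at 45 min, and 1.88 ± 0.58, KCl at 15 min) and Cd44 (-0.76 ± 0.19, Bic at 45 min, and -0.91 ± 0.20, KCl at 180 min). Between Bic and KCl, Rtn4rl1 (0.99 ± 0.22) and Nptx2 (0.93 ± 0.22) were higher with Bic at 45 min, when 0.499% of all genes were, and no other gene of the list was called.

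Under TTX 10 of 45 were higher and 6 lower, against 10.8% of all genes in each direction. Nptx2 (-2.68 ± 0.24) and the protease Adamts8 (-2.34 ± 0.26) fell with Acan and Adamts1, and Hmmr (1.58 ± 0.55) and Csgalnact1 (1.49 ± 0.45), which starts chondroitin chains, rose. TTXw called none at 15 or 45 min and 11 of 45 higher and 5 lower at 180 min, against 7.33% and 6.69% of all genes, with Cd44 (1.92 ± 0.16), the protease inhibitor Timp3 (0.99 ± 0.14), Rtn4rl2 (-1.13 ± 0.36) and decorin (Dcn, -1.03 ± 0.27) the largest.

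Over the 21 group means of both experiments, the genes whose log2 CPM followed each matrix gene most closely were found among 11289 genes, by Pearson's r after each gene was centred within each experiment. The points share libraries and the r values describe likeness only. Acan ran nearest to Gpr3 (0.946), Sertm1 (0.946) and Hsph1 (0.945), Adamts1 to Pabpc4 (0.849), Mest (0.846) and Ier5 (0.836), and Hapln4 to Slc17a7 (0.981), Vip (0.981) and Ddn (0.980). Bcan ran nearest to Etfrf1 (0.971), Plin3 (0.958) and Decr1 (0.955), Tnr to Itpr2 (0.9504), Cldn10 (0.9503) and Zfp36l1 (0.945), Vcan to Zfp846 (0.941), Nln (0.940) and Mb21d2 (0.935), and Hapln1 to Numb (0.915), Ankrd33b (0.909) and Ildr2 (0.893). Ncan had the lowest values, with Lrp10 (0.797), Plod3 (0.781) and F2r (0.779).

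The genes lie at these places in GRCm38.p6. Ncan (chr8:70093085-70120863, minus strand) and Hapln4 (chr8:70083529-70090862, plus strand) face each other end to end, as do Vcan (chr13:89655309-89743027, minus strand) and Hapln1 (chr13:89540529-89611832, plus strand). Neither pair overlaps, and the pairs did not move together with stage, where Ncan did not pass the test while Hapln4 went from 4 to 1419 pooled counts, and Vcan fell while Hapln1 rose. Acan spans chr7:79053226-79115099, Adamts1 chr16:85793827-85803113, Bcan chr3:87987531-88002175 and Tnr chr1:159523729-159931729. Has2 spans chr15:56665627-56694546 and Has3 chr8:106870242-106882902.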

How the data were processed

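Primary cultures of CD1 mouse forebrain were sequenced as CEL-Seq2 3′ libraries, 28 in the maturation and 27 in the stimuli experiment. The authors aligned reads to mm10 with STAR and deposited whole-number counts per RefSeq transcript made with ESAT, not normalised. Collapsing of molecular identifiers and strand are not given in the sources used here. Transcripts were joined to genes through RefSeq GRCm38.p6 (80.8% and 80.9% of 97700 and 96722 transcripts matched, leaving out 18.5% and 19.2% of counts), and each gene was its transcript with the most counts. Every column was mapped to a sample. The median sample held 2867836 counts at 7DIV, 5088478 at 21DIV and 2384138 in the stimuli experiment. Intervals of ratios cover counting error only.

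Genes above 5 CPM (on library size before TMM scaling) in at least 2 samples of a fit were tested with edgeR 4.0.16 (R 4.3.3) by its quasi-likelihood test with TMM scaling and Benjamini-Hochberg adjustment over all genes. The basal stages were fitted on their 6 samples and all other comparisons in 1 fit per experiment. Differences of response between stages are interaction terms, called by the adjusted p alone, and other calls also needed a 1.5-fold change. Log2 CPM used a prior count of 2, and DESeq2 1.42.0 was an alternative. The test was checked on simulated data. Alternatives were RLE scaling, no filter, thinned counts, counts summed over transcripts, a replicate block, other sample sets, 1 test over all time points and leaving out each sample. Replicates of a group differed by more than sampling noise in all 48 pairs (chi-square per degree of freedom 2.17 to 20.2).

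The genes, the 61 other matrix genes and the markers were chosen with earlier results of these data known. In the text every one of the 10 genes is named, and of the other matrix genes up to 2 called in each direction with the largest fold change in each comparison, at an average log2 CPM of at least 2. Promoters were found for 7 of the 10 genes, in RefSeq GRCm38.p6.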

Additional observations from a re-analysis of the deposited data

Results flagged for a closer look

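Of the 8 tested genes, 2 responded differently at 21DIV than at 7DIV by a test of the difference itself. Of all genes, 2.03% and 0.775% were called for KCl at 15 and 180 min, and 4.95% for Bic plus 4-aminopyridine at 180 min. The Acan response to 15 min of KCl was larger at 21DIV by 2.75 log2 (adjusted p = 0.021), higher than every basal sample in 3 of 3 samples at 21DIV. The Adamts1 response was larger at 21DIV by 2.05 log2 for KCl at 15 min (adjusted p = 0.0153), by 2.00 log2 for KCl at 180 min (adjusted p = 0.0313) and by 3.59 log2 for Bic plus 4-aminopyridine at 180 min (adjusted p = 3e-05), and Adamts1 exceeded every basal sample in all 8 stimulated 21DIV samples of these groups. The differences between stages were tested as edgeR quasi-likelihood interactions. How many of all genes exceed every basal sample in this way was not counted. The KCl calls were less firm. As each sample was left out, that of Acan held in 13 of 18 fits and those of Adamts1 in 15 and 9 of 18. Acan also lost its call with counts summed over transcripts. Adamts1 at 180 min of KCl lost it with thinned or summed counts and with a replicate block. In the stimuli experiment at 21DIV, KCl at 180 min did not call Adamts1 (means of 26.5 CPM against 27.8 CPM in basal samples), while KCl at 15 min did. The Adamts1 difference for Bic plus 4-aminopyridine ran from 3.30 to 3.94 log2. In the group of 4 basal TTX samples, none of the 10 genes had a sample set apart from the others by Dixon's test.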

How the results depend on the processing

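Of 35 calls of these genes, and leaving out the separate Bcan transcripts, 22 held under every other setting run, 23 whenever a single sample was left out and 26 under every other setting that kept all samples. These totals, and all counts between basal stages given here and for the block, include Hapln4, whose stage test was fixed by the filter. The totals also include Acan under TTX, which passed the filter only through samples without TTX. The number of genes called moved by more than 1.5 times in these cases. For KCl at 7DIV it went from 0 to 1 (Acan) with no filter on low counts and in a fit on the compared groups only. For Bic plus 4-aminopyridine at 21DIV it went from 1 to 3 with no filter, and was 1 to 3 as each sample was left out. For the stage difference of the KCl response it went from 2 to 1 with counts summed over transcripts, rose to 3 with DESeq2 (Ncan added) and with no filter (Hapln4 added), and was 0 to 2 as each sample was left out. For that of the response to Bic plus 4-aminopyridine it went from 1 to 2 with DESeq2 and with no filter, and was 1 to 2 as each sample was left out. For KCl in the stimuli experiment it was 4, went to 3 with thinned or summed counts, a replicate block and 1 test over all time points, and was 2 to 4 as each sample was left out. For Bic against KCl it went from 1 to 0 with counts summed over transcripts, and was 0 to 2 as each sample was left out. Smaller moves with all samples kept, beside those of the block given further on, were 7 to 5 between basal stages with thinned or summed counts and to 6 in a fit on all samples, 2 to 3 for KCl at 21DIV with no filter or thinned counts, and 5 to 6 for Bic alone with RLE or DESeq2. No filter and fewer samples change which genes and samples are fitted, and beyond that the cause was not tested. Bcan turned direction with transcript NM_001109758 alone, an alternative added after seeing the data, at 45 min of Bic (-0.090) and 15 min of KCl (-0.12).

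Replicate numbers did not pair the samples. Deviations of same-numbered samples from their group means had a mean correlation of -0.00314 (-0.247 to 0.114, 109 pairs) in the maturation experiment and 0.00222 (-0.0936 to 0.103, 96 pairs) in the other. With a replicate block, 7 genes were called between basal stages, 0 and 2 for KCl at 7DIV and 21DIV, 0 and 1 for Bic plus 4-aminopyridine, 2 and 1 for the stage differences, 6 for Bic alone, 3 for KCl, 2 for TTXw, 5 for TTX and 1 for Bic against KCl. Over all genes the block moved the count from 233 to 133 for KCl at 7DIV, 297 to 163 and 582 to 375 for the stage differences of KCl and of Bic plus 4-aminopyridine, 1035 to 645 for Bic alone and 937 to 612 for KCl in the stimuli experiment.

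Depth limits Has2, Has3, Hapln4 at 7DIV and Acan under TTX, which rest on few counts per sample.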

Other observations

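Within the 5 groups of 21DIV samples in the maturation experiment, Acan and Hapln4 often stood at opposite ends. The sample with the lowest Acan level had the highest Hapln4 level in 4 of 5 groups, the exception being basal. Of these 5 groups 2 hold only 2 samples. In basal samples Acan was at 14.9, 5.54 and 6.42 CPM and Hapln4 at 15.0, 72.6 and 102 CPM. After 180 min of KCl Acan was at 8.18, 19.6 and 39.2 CPM and Hapln4 at 76.3, 43.04 and 24.1 CPM. This was noticed in the data and not tested.

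Ncan transcript XM_006509543, counted beside the main Ncan transcript, was called higher after 180 min of Bic plus 4-aminopyridine at 21DIV (0.92 ± 0.25 log2, adjusted p = 0.0115) and lower after 45 min of Bic alone (-0.86 ± 0.27, adjusted p = 0.0384) by edgeR's quasi-likelihood test, in a fit chosen after seeing the data.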
